A study of Rattus norvegicus with 19 samples.

Results

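Microglia genes are a set of 36 genes that mark or serve microglia, the resident macrophages of the brain, and they were followed here by gene symbol in the hippocampus of rats that carried 1, 2 or 3 copies of the chromosome 1 interval matching human 16p11.2. Of the 36 symbols, 35 were present among the 32623 genes of the files, all but *Dock2*, and all 35 had enough reads to be tested together with the other genes, 15440 in all. The rule names genes by symbol and uses no measured value.

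The animals were adult male Sprague Dawley rats, an outbred strain, from lines in which the *Sult1a1* to *Spn* interval had been deleted or duplicated with CRISPR/Cas9. RNA was sequenced from the hippocampus of 19 animals: 6 wild-type (wt, 2 copies), 4 Del/+ (1 copy), 5 Dup/+ (3 copies) and 4 Del/Dup, which carry the deleted and the duplicated chromosome together and so hold 2 copies. The wt animals were littermates of carriers. The exact age at dissection and which animals shared a litter are not given in the sources used here, and p-values measure the spread between these animals.

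Microglia survey neural tissue with fine processes, engulf debris and synapses tagged by complement, and depend on signalling through the CSF1 receptor for survival. In the resting state they read neuronal signals through receptors such as CX3CR1 and P2RY12, and the transcription factors PU.1 and IRF8 maintain their identity. When challenged they can raise lysosomal, lipid-handling and antigen-presenting genes.

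The 19 libraries held 16191192 to 38760645 reads assigned to genes. The share of reads that mapped to several places ran from 40.1 to 76.3%, and 7 libraries lay above 55%, namely Del/+ replicates 1 to 3 and all 4 Del/Dup libraries, so that this share cannot be told apart from genotype for Del/Dup. For wt replicate 5 one label field gave wt and another Dup/+. It was counted as wt, and its *Coro1a* level, a gene of the interval, was 102 CPM (the reads of a gene scaled to an equal library total), beside 101 to 112 CPM over the wt group and 149.7 to 163 CPM over Dup/+. Its level thus lay inside the wt range and below every Dup/+ library, and the Dup/+ reading is given only as an alternative. As a check of the labels, 8 of 8 widely expressed interval genes fell in Del/+ (log2 fold change -1.05 to -0.87) and rose in Dup/+ (0.48 to 0.58), and 0 were called in Del/Dup. The presence of excitatory neurons was checked on *Slc17a7*, their vesicular glutamate transporter, which averaged 2117 ± 111 CPM in wt (SD, n = 6). This level does not by itself identify the hippocampus. Every microglia gene had at least 10 reads in every library, the lowest being *Cd68* in Del/+. Wild-type means ran from 0.883 CPM for *Cd68* to 104 CPM for *Csf1r*. CPM is not corrected for transcript length, so levels are compared between groups and not between genes.

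Promoters of the set are shown because PU.1, the product of the member *Spi1*, binds purine-rich sequences, and because the variation shared by members between animals is described further on. RefSeq start sites on the assembly GRCr8 were available for 25 of the 35 genes, each with 250 bases before and 50 bases after the start. The letters GAGGAAG, searched on both strands as a PU.1 core, occurred in 12 of these 25 windows (48%) and in 12.4% of all 33469 promoter windows. The 12 genes were *Csf1r*, *Csf3r*, *Trem2*, *Itgam*, *Siglec5*, *Mrc1*, *Ctss*, *Cd68*, *Laptm5*, *Inpp5d*, *Vav1* and *Cyth4*. A longer composite of ETS and IRF letters, GGAANNGAA, which can overlap the first motif, was held by 4 of 25 (16%) against 9.32% of all windows, the TATA box TATAAA by 4 of 25 (16%) against 14.2%, and the cyclic AMP response core TGACGT by 0 of 25 against 7.94%. These matches describe the letters of the windows and do not show binding. The 250 bases before the start are given 5′ to 3′ on the strand of the gene for 3 of the 12, with the PU.1 core of either strand in capitals. *Itgam* (chr1:192089342-192089591, plus strand) held the core on each strand, at positions -151 and -40 from the start, *Trem2* (chr9:20151780-20152029, minus strand) at -30, and *Laptm5* (chr5:148371630-148371879, plus strand) at -64.
Itgam: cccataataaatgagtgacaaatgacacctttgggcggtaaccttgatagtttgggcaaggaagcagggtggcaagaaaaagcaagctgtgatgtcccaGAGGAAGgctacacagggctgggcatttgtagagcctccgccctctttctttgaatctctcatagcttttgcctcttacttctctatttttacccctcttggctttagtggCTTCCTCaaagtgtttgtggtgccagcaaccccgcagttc
Trem2: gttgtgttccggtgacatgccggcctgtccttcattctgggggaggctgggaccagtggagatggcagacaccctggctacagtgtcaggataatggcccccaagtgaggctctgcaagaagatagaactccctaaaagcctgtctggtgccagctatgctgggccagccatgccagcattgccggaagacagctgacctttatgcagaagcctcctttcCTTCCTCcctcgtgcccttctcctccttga
Laptm5: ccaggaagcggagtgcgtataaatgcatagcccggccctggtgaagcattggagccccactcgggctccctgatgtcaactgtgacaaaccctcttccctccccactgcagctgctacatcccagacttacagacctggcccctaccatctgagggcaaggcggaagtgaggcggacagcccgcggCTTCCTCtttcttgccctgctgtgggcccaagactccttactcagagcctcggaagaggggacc

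Copy number of the interval was compared with the level of each gene by edgeR's quasi-likelihood test on all 15440 genes, with Benjamini-Hochberg adjustment, and a gene was called at an adjusted p under 0.05. No microglia gene passed the test in any comparison. The count was 0 of 35 in Del/+ against wt, where 0.771% of all tested genes were called, 0 in Dup/+ against wt (0.272% of all genes), 0 in Del/Dup against wt (0.0907%), 0 in Del/+ against Dup/+ (0.784%) and 0 in the test of any difference among the 4 groups (0.823%). The comparisons with wt share the 6 wt libraries and are not independent of each other. At an unadjusted p under 0.05 there were 6 of 35 genes in Del/+ (17.1% against 18.4% of all genes), 6 in Dup/+ (17.1% against 8.94%), 2 in Del/Dup (5.71% against 16.2%), 1 in Del/+ against Dup/+ (2.86% against 13.5%) and 5 in the joint test (14.3% against 18.9%). The Del/+ and Dup/+ counts moved with single libraries and settings. In Del/+ it was 2 without Del/+ replicate 2, 9 without Del/+ replicate 1 and 1 with either adjustment for the multi-mapped share, and in Dup/+ it was 0 with wt replicate 5 read as Dup/+, 4 without Dup/+ replicate 1 and 9 without Dup/+ replicate 5. The Del/Dup count was 4 without wt replicate 5 and 1 with library size alone. That of Del/+ against Dup/+ was 0 without Del/+ replicate 4 and 2 without Del/+ replicate 1. Genes whose libraries did not overlap between groups numbered 1 in Del/+ against wt (4.94% of all genes), 1 in Dup/+ against wt (1.17%), 0 in Del/Dup against wt (2.56%) and 0 in Del/+ against Dup/+ (5.30%). With all libraries under their labels, and apart from Dup/+, these shares of microglia genes were at or below those of all genes.

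The fitted changes were small for most of the set. In Del/+ against wt the median log2 fold change of the 35 genes was -0.07, beside 0.00 for all genes, and 25 genes lay below 0 (71.4%, against 49.8% of all genes). Dup/+ gave a median of -0.08 with 24 genes below 0 (68.6% against 50.8%), or 21 with wt replicate 5 read as Dup/+. Del/Dup gave -0.02 with 21 below 0 (60.0% against 49.7%), a split that was 17 below and 18 above when libraries were scaled by total reads alone, 16 below and 19 above without Del/Dup replicate 5, 24 below and 11 above without Del/Dup replicate 2 or 4, and 23 below and 12 above with the level of the choroid plexus gene *Ttr* as a covariate. With a term for a multi-mapped share above 55% the splits were 14 below and 21 above in Del/Dup and 19 below and 16 above in Del/+. That term is set by Del/+ replicates 1 to 3 against replicate 4, so the Del/+ split with it compares replicate 4 alone with wt. Between Del/+ and Dup/+ the median was 0.00 with 17 below and 18 above, a balance that became 9 below and 26 above without Del/+ replicate 2 and 22 below and 13 above without Del/+ replicate 1. Against wt the Del/+ median was -0.01 with 20 below without replicate 2, and -0.11 with 28 below without replicate 1. In a piece of tissue, fewer microglia and less RNA per microglia cannot be told apart. The part of other cells in these values was not tested.

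A test that misses the threshold does not show equal levels, so the 95% confidence intervals are given as bounds. The whole interval lay within a 1.5-fold change for 32 of 35 genes in Del/+, 32 in Dup/+ and 30 in Del/Dup, and within a 2-fold change for 34, 34 and 33. Apart from *Cd74*, the highest log2 fold changes were 0.15 in Del/+ (*Ptprc*), 0.27 in Dup/+ and 0.67 in Del/Dup (*Fcgr2b* in both), and the lowest were -0.29 (*Cd68* in Del/+), -0.44 (*Spi1* in Dup/+) and -0.20 (*Spi1* in Del/Dup).

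**Figure D1:**
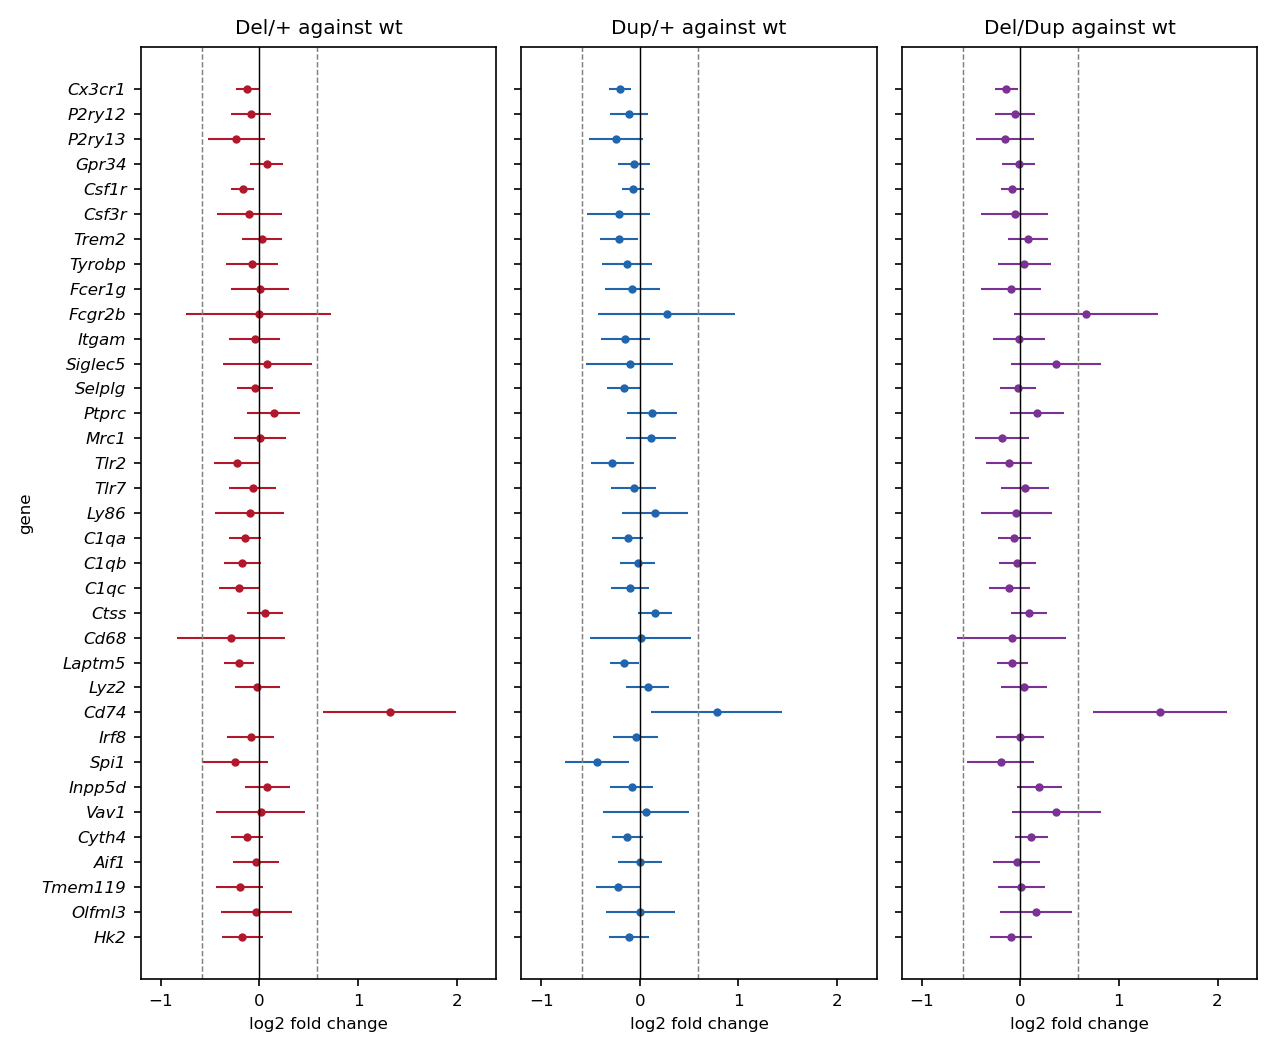
Log2 fold change against wt of the 35 microglia genes in Del/+, Dup/+ and Del/Dup (horizontal axis, log2 units), with points for the edgeR estimate and bars for the 95% confidence interval. Dashed lines mark a 1.5-fold change. *Cd74* lies farthest to the right in all 3 panels, and most other intervals stay between the dashed lines.

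*Cd74* (ENSRNOG00000018735), the invariant chain that escorts MHC class II molecules to the antigen-loading compartment, had the largest fitted change of the set in each comparison with wt. Its level in wt ran from 2.37 to 6.27 CPM with a median of 3.22. The Del/+ libraries read 6.85, 8.57, 9.53 and 14.2 CPM, all above the highest wt library. In Del/Dup the values were 10.5, 5.60, 20.2 and 5.45 CPM, so that replicates 2 and 4 stood above every wt library while replicates 3 and 5 lay within the wt range. The 5 Dup/+ values, 5.37, 9.0, 6.57, 7.08 and 5.46 CPM, overlapped wt, with 3 above its maximum. The log2 fold change was 1.32 in Del/+ (SE 0.323, adjusted p = 0.0575), 1.41 in Del/Dup (SE 0.327, adjusted p = 0.0816) and 0.78 in Dup/+ (SE 0.318, adjusted p = 0.480), with 95% confidence intervals of 0.65 to 2.0, 0.73 to 2.10 and 0.11 to 1.44. Between Del/+ and Dup/+ it was 0.54 (interval -0.15 to 1.24, adjusted p = 0.490), from 0.31 without Del/+ replicate 4 to 0.68 without Del/+ replicate 1, and 1.08 in the settings where replicate 4 alone sets the Del/+ value. The Del/+ value crossed the threshold in 11 of 30 alternative settings, among them DESeq2 (1.34, adjusted p = 0.0174) and 1 setting that keeps a single Del/+ animal, and the Del/Dup value in 3 of 29, among them DESeq2 (1.43, adjusted p = 0.0195). With single libraries left out the Del/+ value stayed between 1.09 and 1.51, past the threshold without wt replicate 4, Del/+ replicate 1 or any 1 of the Del/Dup libraries. The Del/Dup value spanned 0.88 to 1.63, past the threshold without Del/Dup replicate 3 or 5 and lowest without Del/Dup replicate 4.

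The MHC class II genes themselves were read beside *Cd74* from a list of 7, of which 6 were tested and 0 were called in any comparison. *RT1-Da*, a class II alpha chain and the gene of highest mean CPM in the list, averaged 0.941 ± 0.384 CPM in wt (SD, n = 6). Its Del/+ libraries read 1.76, 1.80, 1.79 and 3.76 CPM, all above the wt maximum of 1.61, and its Del/Dup libraries 2.90, 1.26, 4.44 and 0.823 CPM. The Dup/+ libraries read 0.991, 2.60, 1.55, 1.54 and 1.23 CPM, 1 of them above the wt maximum. The log2 fold change was 1.22 in Del/+ (adjusted p = 0.101), 0.71 in Dup/+ (adjusted p = 0.578) and 1.26 in Del/Dup (adjusted p = 0.161), and the Del/+ value passed the threshold in 2 of 30 alternatives, DESeq2 and the one that keeps a single Del/+ animal. *RT1-Db1*, its partner beta chain, had 1 to 8 reads in a wt library and gave 1.72 in Del/+ (adjusted p = 0.0592), 2.11 in Del/Dup (adjusted p = 0.0568) and 1.53 in Dup/+ (adjusted p = 0.210), values that passed the threshold in 4 of 30, 4 of 29 and 1 of 30 alternatives. *RT1-Ba* and *RT1-Bb*, the chains of the other class II molecule, gave 0.66 and 0.72 in Del/+, 0.48 and 0.32 in Dup/+, and 0.57 and 0.60 in Del/Dup. *RT1-DMb*, the beta chain of the DM molecule that loads peptides onto class II, lay on the other side of 0 in every carrier group, at -0.36 in Del/+ (adjusted p = 0.328), -0.16 in Dup/+ and -0.22 in Del/Dup. *Ciita*, the master regulator of class II transcription, gave -0.11, 0.56 and 0.13 in Del/+, Dup/+ and Del/Dup, with 4 to 19 reads in a library. *RT1-Bb* and the *RT1-D* genes have close relatives in the rat MHC, and reads of 50 bases may be shared between them. All 6 tested class II genes are given, of which *RT1-Da* alone falls under the rule on named genes, and the others were added after their values were seen.

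**Figure D2:**
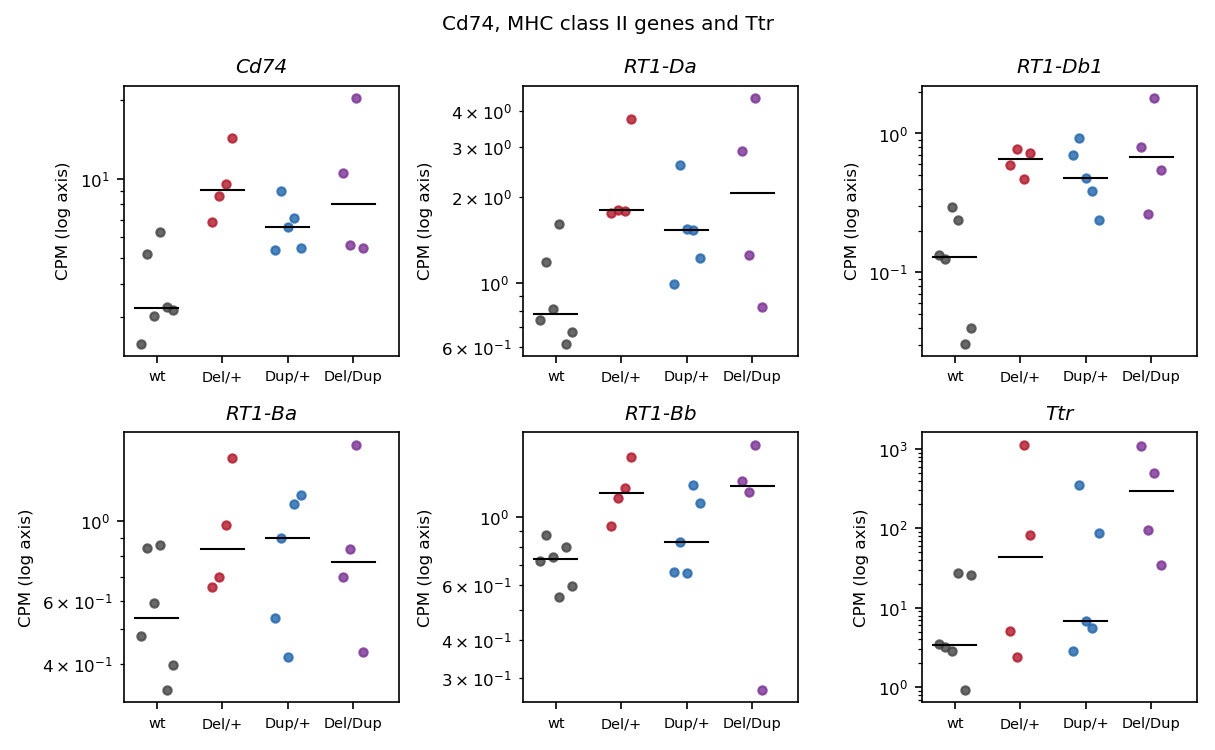
Level in CPM (log axis) of *Cd74*, 4 MHC class II genes and the choroid plexus marker *Ttr* in each of the 19 libraries by group, with a line at the group median. The Del/+ points of *Cd74* and *RT1-Da* all lie above the wt points, and *Ttr* spans from 0.921 to 1126 CPM over the libraries.

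Markers of choroid plexus were high in some of the same libraries. The summed level of the 6 choroid plexus genes was 3.41 to 34.1 CPM in wt, while Del/+ spanned 4.88 to 1249 CPM, Dup/+ 6.40 to 404 CPM and Del/Dup 40.9 to 1201 CPM, with 1 of the 6 at 0 in every library. Of the 5 tested, 0 were called in any comparison, with median log2 fold changes of 3.43 in Del/+, 2.19 in Dup/+ and 4.00 in Del/Dup. By edgeR's test 5, 2 and 5 of them had an unadjusted p under 0.05 in these groups, beside 18.4, 8.94 and 16.2% of all genes. *Ttr*, the transthyretin that choroid plexus epithelium secretes, read 5.12, 2.38, 1126 and 81.5 CPM in the 4 Del/+ libraries, so that *Cd74* was above the wt maximum in Del/+ replicates 1 and 2 where *Ttr* was at the wt level. In Del/Dup replicates 2 to 5 *Ttr* read 1087, 96.3, 500 and 34.4 CPM, highest in the 2 libraries where *Cd74* was highest. The highest *Ttr* library was also the highest *Cd74* library in Dup/+ (replicate 2, 352 and 9.0 CPM) and in wt (replicate 4, 27.4 and 6.27 CPM). In Del/+ it was not, with *Ttr* highest in replicate 3 and *Cd74* in replicate 4 (14.2 CPM). Nor was it in Del/Dup, with *Ttr* highest in replicate 2 and *Cd74* in replicate 4 (20.2 CPM). With the *Ttr* level as a covariate, a setting added after the data were seen, the *Cd74* log2 fold change was 1.07 in Del/+ (adjusted p = 0.153) and 0.84 in Del/Dup (adjusted p = 0.705). Among the 12 libraries of low multi-mapped share the value was 1.86, but Del/+ is there replicate 4 alone, its highest *Cd74* library, and the spread comes from the other groups, so it says nothing on the spread within Del/+. Border macrophages, which also carry class II, were read from 10 genes, of which 8 were tested and 0 called, with summed levels of 10.7 to 16.2 CPM in wt. The carrier sums were 10.6 to 14.7 CPM (Del/+), 12.1 to 13.7 CPM (Dup/+) and 9.89 to 14.6 CPM (Del/Dup). Their leading gene *Stab1*, a scavenger receptor, gave -0.18, -0.16 and -0.08 in Del/+, Dup/+ and Del/Dup. The part of choroid plexus or other non-microglial cells in the *Cd74* values was not tested beyond these settings.

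Receptors that sense neurons and growth factors came next. *Cx3cr1* (ENSRNOG00000018509), the receptor for the neuronal chemokine fractalkine, ran from 25 to 28.7 CPM in wt with a median of 26.6. All 5 Dup/+ libraries, at 24.5, 20.3, 23.1, 24.2 and 24.2 CPM, lay below the lowest wt library. The highest of all libraries was wt replicate 5 (28.7 CPM), and with it read as Dup/+ the groups overlap and the log2 fold change is -0.12. Del/+ read 26.2, 22.8, 24.1 and 24.8 CPM and Del/Dup 23.9, 24.3, 25.4 and 23.2 CPM, each with 3 libraries below the wt minimum. The log2 fold change was -0.20 in Dup/+ (SE 0.0522, 95% interval -0.31 to -0.09, adjusted p = 0.193), -0.12 in Del/+ (SE 0.0548, adjusted p = 0.246) and -0.14 in Del/Dup (SE 0.0558, adjusted p = 0.230). None of the 30 alternatives called it in Dup/+, where the value stayed between -0.22 and -0.12. *Cx3cr1* had the smallest within-group spread of the set, an SD of 0.080 on the log2 scale.

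*Csf1r*, the receptor for CSF1 and IL-34 that microglia need to survive, ran from 95.4 to 111 CPM in wt with a median of 103. Del/+ libraries read 98.3, 82.2, 91.4 and 97.2 CPM, 2 of them below the wt minimum. The log2 fold change was -0.17 in Del/+ (SE 0.0561, 95% interval -0.29 to -0.05, adjusted p = 0.123), -0.07 in Dup/+ and -0.08 in Del/Dup. For the members that follow, levels are wt means with their SD (n = 6), and the values given in order for Del/+, Dup/+ and Del/Dup are log2 fold changes against wt. *P2ry12*, the ADP receptor of process extension, averaged 18.5 ± 2.62 CPM in wt and gave -0.08, -0.11 and -0.05 in Del/+, Dup/+ and Del/Dup. *P2ry13*, a related ADP receptor, averaged 4.55 ± 0.626 CPM and gave -0.23, -0.24 and -0.15. *Gpr34*, a lysophosphatidylserine receptor, averaged 14.3 ± 0.899 CPM and gave 0.08, -0.06 and -0.02. *Csf3r*, the receptor for granulocyte colony-stimulating factor, averaged 3.01 ± 0.515 CPM and gave -0.10, -0.21 and -0.06. Of the 6 receptors 0 were called, with adjusted p from 0.123 to 0.939 in the comparisons with wt. Their ligands and partners, a list of 7 genes, were all tested with 0 called, and *Cx3cl1*, the fractalkine gene itself, averaged 491 ± 54.3 CPM in wt with values of -0.06, -0.02 and -0.06 in the 3 carrier groups.

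**Figure D3:**
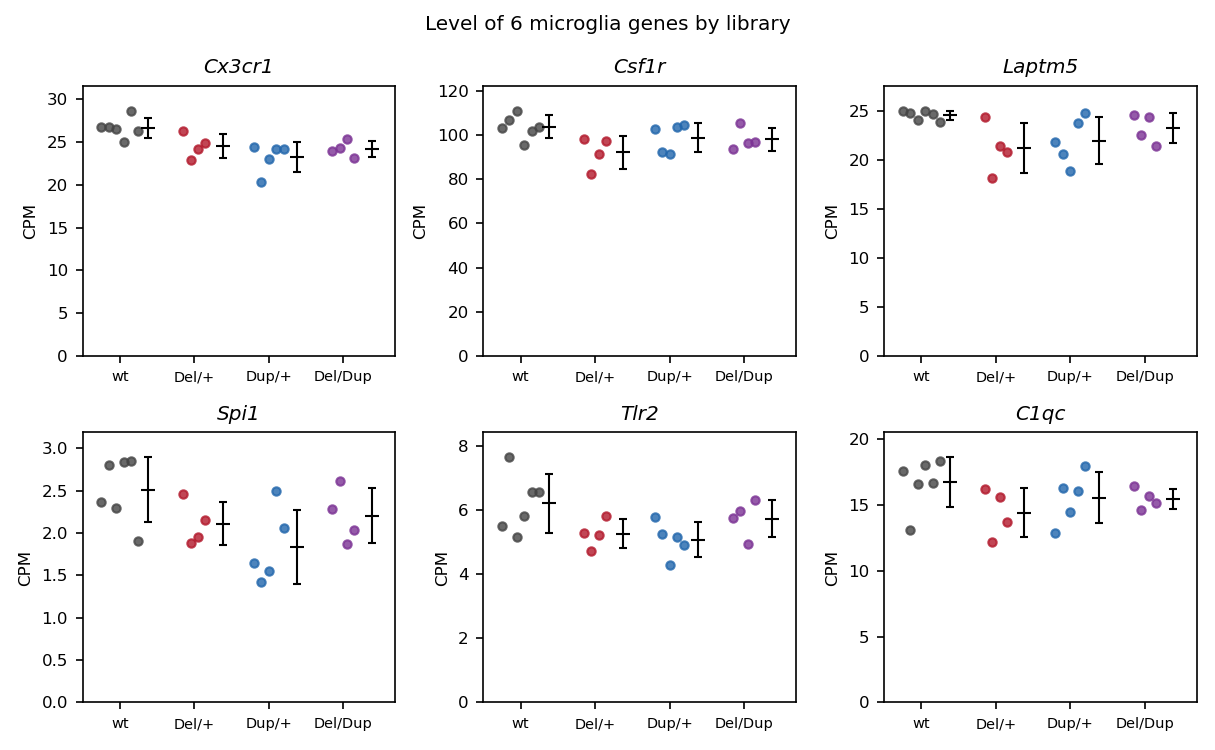
Level in CPM of *Cx3cr1*, *Csf1r*, *Laptm5*, *Spi1*, *Tlr2* and *C1qc* in each library by group, from 0, with the group mean and SD beside the points. The 5 Dup/+ points of *Cx3cr1* lie below all 6 wt points, and the other panels show overlapping groups.

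Phagocytic, Fc and adhesion receptors with their adaptors, 9 genes, had 0 calls. *Trem2*, the lipid receptor that drives the activated state, averaged 7.84 ± 0.772 CPM in wt and gave 0.02, -0.21 and 0.08 in Del/+, Dup/+ and Del/Dup. Its libraries read 8.82, 7.59, 6.98 and 8.47 CPM in Del/+ and 5.86, 7.03, 6.09, 6.54 and 8.07 CPM in Dup/+, overlapping groups with a log2 difference of 0.24 between Del/+ and Dup/+ (SE 0.101, adjusted p = 0.304). Its adaptor *Tyrobp* (DAP12) averaged 5.46 ± 0.411 CPM and gave -0.07, -0.13 and 0.04. *Fcer1g*, the Fc receptor gamma chain, averaged 6.01 ± 0.653 CPM and gave 0.01, -0.07 and -0.09. *Fcgr2b*, the inhibitory Fc gamma receptor, varied most within groups, with an SD of 0.575 on the log2 scale. It ran from 1.55 to 5.38 CPM in wt with a median of 2.83. In Del/Dup it read 6.17, 7.01, 5.65 and 1.57 CPM, so that 3 libraries lay above and 1 near the bottom of the wt range. Its log2 fold change was 0.67 in Del/Dup (SE 0.349, 95% interval -0.06 to 1.40, adjusted p = 0.346), -0.01 in Del/+ and 0.27 in Dup/+. With 1 library left out these ran from 0.48 (without Del/Dup replicate 3) to 0.96 (without Del/Dup replicate 5) in Del/Dup, from -0.17 (without Del/+ replicate 4) to 0.20 (without wt replicate 4) in Del/+, and from 0.14 (without wt replicate 6) to 0.48 (without wt replicate 4) in Dup/+, and the multi-mapped term took Del/Dup to 1.25. The family of Fc gamma receptor genes is closely related in sequence, and its reads may be split between copies.

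Among the adhesion and surface genes, *Itgam* (CD11b), the complement receptor integrin, averaged 12.4 ± 0.700 CPM in wt and gave -0.05, -0.15 and -0.02 in Del/+, Dup/+ and Del/Dup. *Selplg*, the P-selectin ligand, averaged 16.4 ± 1.29 CPM and gave -0.04, -0.16 and -0.02. *Ptprc* (CD45), the leukocyte phosphatase, averaged 4.48 ± 0.485 CPM and gave 0.15, 0.12 and 0.17. *Siglec5*, a sialic acid receptor, averaged 3.60 ± 1.33 CPM and gave 0.08, -0.10 and 0.36. *Mrc1* (CD206), the mannose receptor typical of border macrophages, averaged 7.16 ± 0.988 CPM and gave 0.01, 0.11 and -0.19.

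Innate sensing and complement genes followed. *Tlr2*, the receptor for bacterial lipoproteins, ran from 5.15 to 7.66 CPM in wt with a median of 6.20. Dup/+ libraries read 5.78, 5.26, 4.30, 5.16 and 4.91 CPM, in the lower part of the wt range or below it. The fitted change was -0.28 in Dup/+ (SE 0.105, adjusted p = 0.428), -0.23 in Del/+ (SE 0.110, adjusted p = 0.260) and -0.11 in Del/Dup. *Tlr7*, the endosomal RNA sensor, averaged 4.35 ± 0.547 CPM and gave -0.07, -0.06 and 0.05, and *Ly86*, the partner of a TLR4-like receptor, averaged 1.43 ± 0.188 CPM and gave -0.10, 0.15 and -0.04. The C1q chains, which start the classical complement cascade and tag synapses, lay below 0 in each carrier group without a call. *C1qa* averaged 37.6 ± 2.84 CPM in wt and gave -0.15, -0.12 and -0.06 in Del/+, Dup/+ and Del/Dup, *C1qb* averaged 23.1 ± 1.72 CPM and gave -0.17, -0.02 and -0.03, and *C1qc* averaged 16.7 ± 1.91 CPM and gave -0.21, -0.10 and -0.11. For *C1qc* the Del/+ libraries, at 16.2, 12.2, 15.6 and 13.7 CPM, overlapped the wt range of 13.1 to 18.4 (adjusted p = 0.255). A list of 13 other complement genes, 11 of them tested, had 0 calls, and its highest gene *Cd59*, a shield against complement lysis, gave 0.13, -0.00 and 0.06.

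The next group was the lysosomal genes. *Laptm5*, a lysosomal membrane protein of leukocytes, was tight in wt at 23.9 to 25 CPM with a median of 24.7. In Del/+ it read 24.4, 18.2, 21.5 and 20.8 CPM, with 3 libraries below the wt minimum. The log2 fold change was -0.21 in Del/+ (SE 0.0734, 95% interval -0.36 to -0.06, adjusted p = 0.136), -0.16 in Dup/+ (SE 0.0695, adjusted p = 0.517) and -0.08 in Del/Dup. *Ctss* (cathepsin S), the protease that trims the *Cd74* product, averaged 103 ± 4.18 CPM in wt and gave 0.06, 0.15 and 0.09. *Cd68*, a lysosomal scavenger protein, averaged 0.883 ± 0.145 CPM and gave -0.29, 0.01 and -0.09, and *Lyz2*, lysozyme, averaged 16.1 ± 1.12 CPM and gave -0.02, 0.08 and 0.04.

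The transcription factor *Spi1*, which encodes PU.1, ran from 1.91 to 2.86 CPM in wt with a median of 2.59. Dup/+ libraries read 1.65, 1.42, 1.55, 2.5 and 2.06 CPM, 3 of them below the wt minimum, and Del/+ read 2.46, 1.89, 1.95 and 2.15 CPM. The fitted change was -0.44 in Dup/+ (SE 0.155, 95% interval -0.76 to -0.11, adjusted p = 0.391), -0.25 in Del/+ and -0.20 in Del/Dup. Its partner factor *Irf8* averaged 5.68 ± 0.708 CPM in wt and gave -0.09, -0.04 and -0.00. The signalling genes were likewise uncalled. *Inpp5d* (SHIP1), the lipid phosphatase that opposes PI3 kinase, averaged 19.1 ± 1.59 CPM and gave 0.08, -0.08 and 0.19. *Vav1*, an exchange factor for small GTPases of the cytoskeleton, averaged 1.26 ± 0.232 CPM and gave 0.01, 0.06 and 0.37. *Cyth4*, an exchange factor for ARF GTPases, averaged 7.56 ± 0.512 CPM and gave -0.12, -0.13 and 0.11. *Aif1* (IBA1), the actin-bundling protein used to stain microglia, averaged 11.1 ± 1.32 CPM and gave -0.03, 0.01 and -0.04.

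3 members fall outside these roles. *Tmem119*, a membrane protein used to tell microglia from other macrophages, averaged 21.2 ± 1.48 CPM in wt and gave -0.20, -0.22 and 0.01 in Del/+, Dup/+ and Del/Dup. *Olfml3*, a secreted protein of homeostatic microglia, averaged 3.94 ± 0.873 CPM and gave -0.03, 0.01 and 0.16, and *Hk2*, the hexokinase of glycolysis, averaged 13.4 ± 1.43 CPM and gave -0.17, -0.11 and -0.09.

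**Figure D4:**
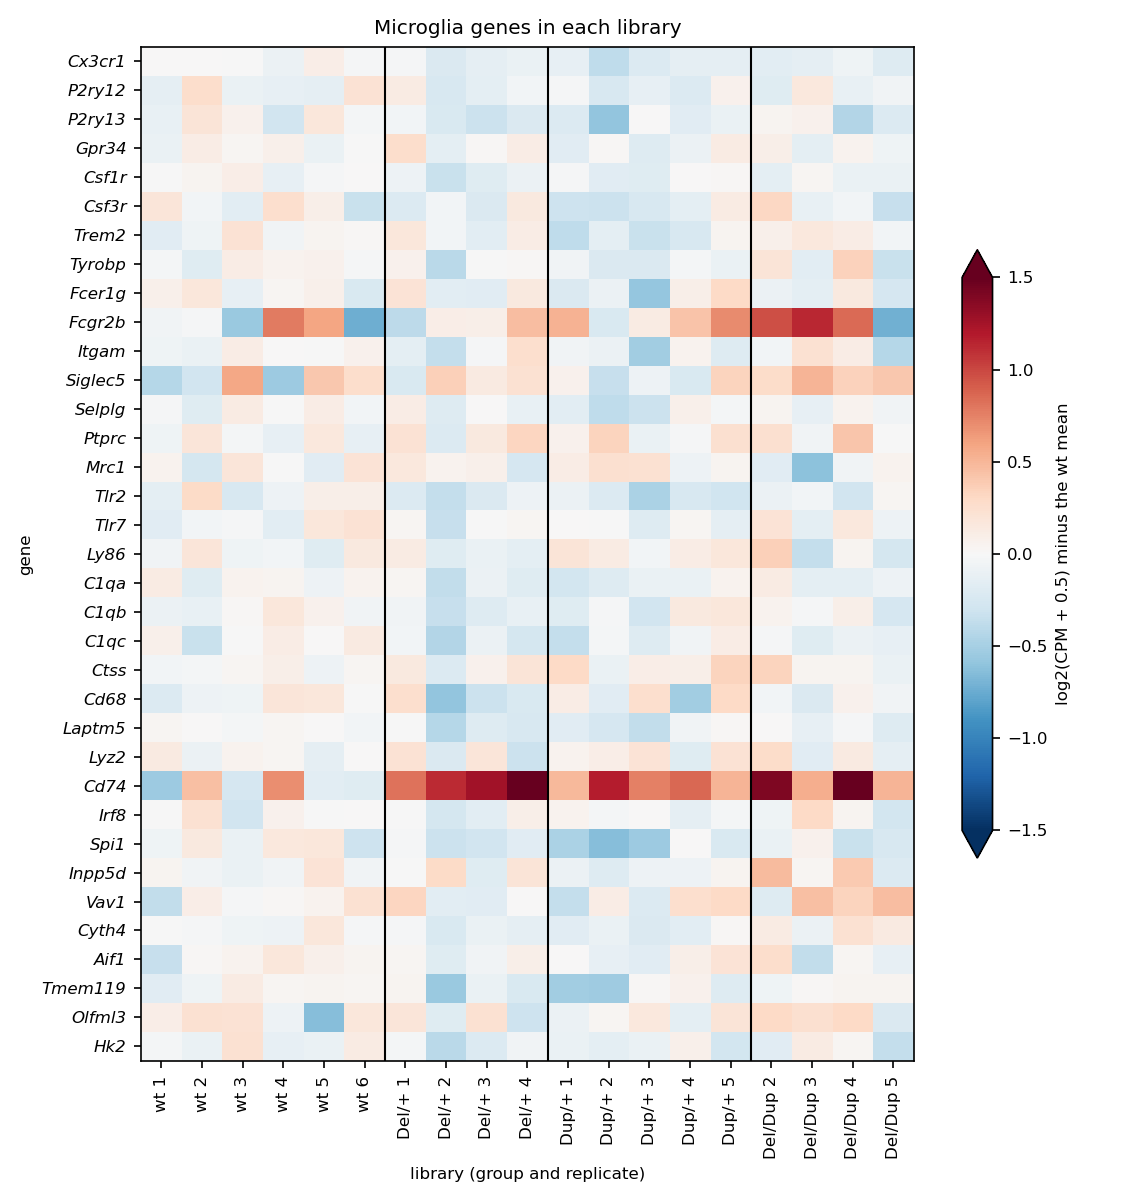
Level of each of the 35 microglia genes (rows) in each of the 19 libraries (columns), as log2(CPM + 0.5) minus the mean of the 6 wt libraries; red is above and blue below that mean, and values past 1.5 take the end colour. The *Cd74* row is red in all carrier columns, and the Del/+ replicate 2 column is blue for most rows.

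Single animals carried part of the pattern. The median over the 35 genes of the log2 level minus the wt mean spanned -0.05 to 0.06 among the 6 wt libraries, -0.22 to 0.03 among those of Del/+, -0.17 to 0.05 for Dup/+ and -0.12 to 0.06 for Del/Dup. The lowest library was Del/+ replicate 2, in which 14 of the 35 genes had their lowest level of all 19 libraries and 5 stood above the wt mean. That library also had the highest share of multi-mapped reads, 76.3%, whose part in these values was not tested. Within groups the SD of a microglia gene on the log2 scale had a median of 0.184, against 0.130 over all tested genes. The 2 sets were not matched on read depth, which also bears on this SD.

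Shared variation was described from the deviations of each gene from its group means. Over the 595 pairs of genes, the correlation of these deviations across 19 libraries had a median Pearson r of 0.21 and a median Spearman coefficient of 0.20, with 77.0% of pairs above 0, while pairs of all genes had a median of -0.00 with 49.9% above 0. The median fell to 0.15 without Del/+ replicate 2, and to 0.11 without that library and Dup/+ replicate 5. *C1qa* and *C1qc* had the highest pairwise r, 0.84, followed by *Laptm5* with *C1qb* (0.79) and with *Fcer1g* (0.79). *Cd74* had a median r of 0.06 with the other members and *Mrc1* the lowest, -0.13. Points in these correlations share library depth and composition, and they are given as a description.

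Other genes of microglia were taken from lists that do not overlap the set. In a list of 30 further homeostatic genes, 28 were tested and 0 were called against wt by edgeR's test. The median log2 fold changes were -0.06 in Del/+, -0.05 in Dup/+ and -0.01 in Del/Dup. At an unadjusted p under 0.05 there were 5, 3 and 2 of the 28, beside 18.4, 8.94 and 16.2% of all genes. The summed level of that list was 405 to 431 CPM in wt, with 379.8 to 414 CPM for the Del/+ libraries, 393 to 416 CPM for Dup/+ and 397 to 411 CPM for Del/Dup.

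Among 23 genes of activated, disease-associated microglia, 16 were tested and *Cd9* was the gene called. *Cd9* (ENSRNOG00000019556), a tetraspanin also made by oligodendrocytes and vessels, ran from 39.8 to 46.7 CPM in wt with a median of 43.9. Del/+ read 55.6, 54.5, 56.5 and 63.5 CPM, all above wt, and Del/Dup 57.6, 48.8, 51.8 and 54.1 CPM, also all above wt. It rose in Del/+ by 0.40 on the log2 scale (SE 0.0520, adjusted p = 0.000143) and was higher in Del/+ than in Dup/+ by 0.28 (adjusted p = 0.0133), the latter lost without Del/+ replicate 4 (0.23, adjusted p = 0.0616). The rise in Del/Dup (0.28, adjusted p = 0.0480) held in 6 of 29 alternatives. The 6 oligodendrocyte markers were measured beside it, with 0 called and *Mbp*, the myelin basic protein, at 0.29, 0.12 and 0.22. At an unadjusted p under 0.05 in edgeR's test stood 18.4, 8.94 and 16.2% of all genes in Del/+, Dup/+ and Del/Dup. There it was 5, 1 and 3 of the 6 markers. They summed to 4995 to 6468 CPM in wt, against 5882 to 8819 CPM (Del/+), 5888 to 6754 CPM (Dup/+) and 5806 to 7089 CPM (Del/Dup). Their part in the *Cd9* values was not tested. *Apoe*, the lipid carrier and leading gene of the activated list, gave -0.22, -0.03 and -0.16. Cytokine and acute inflammation genes numbered 13, of which 8 were tested and 0 called, and *Nfkbia*, the inhibitor of NF-kappa B, gave 0.05, 0.30 and 0.42.

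The interval itself holds 2 genes of leukocytes, which show how a copy-number change looks on the same scale. *Coro1a*, an actin regulator of leukocytes and neurons, read 60.7, 42.8, 50.3 and 51.2 CPM in Del/+ and 160.3, 159.7, 163, 151 and 149.7 CPM in Dup/+, against 101 to 112 in wt. It fell in Del/+ (-1.03, SE 0.0774, adjusted p = 2.91e-08), rose in Dup/+ (0.58, SE 0.0692, adjusted p = 9.28e-05, but 0.0914 when wt replicate 5 is read as Dup/+) and gave -0.10 in Del/Dup (adjusted p = 0.50). That reading adds to Dup/+ a library whose *Coro1a* level lies inside the wt range and below all 5 labelled Dup/+ libraries. *Spn* (CD43), a leukocyte sialoglycoprotein, averaged 3.37 ± 0.497 CPM in wt, 1.38 ± 0.323 in Del/+, 5.30 ± 0.763 in Dup/+ and 3.17 ± 0.376 in Del/Dup (SD, n = 6, 4, 5 and 4). It fell in Del/+ (-1.22, adjusted p = 9.92e-05, or 0.0874 with the term for a multi-mapped share above 55%, which leaves replicate 4 to set the value) and rose in Dup/+ (0.64, adjusted p = 0.0445), a call kept in 9 of 30 alternatives.

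**Figure D5:**
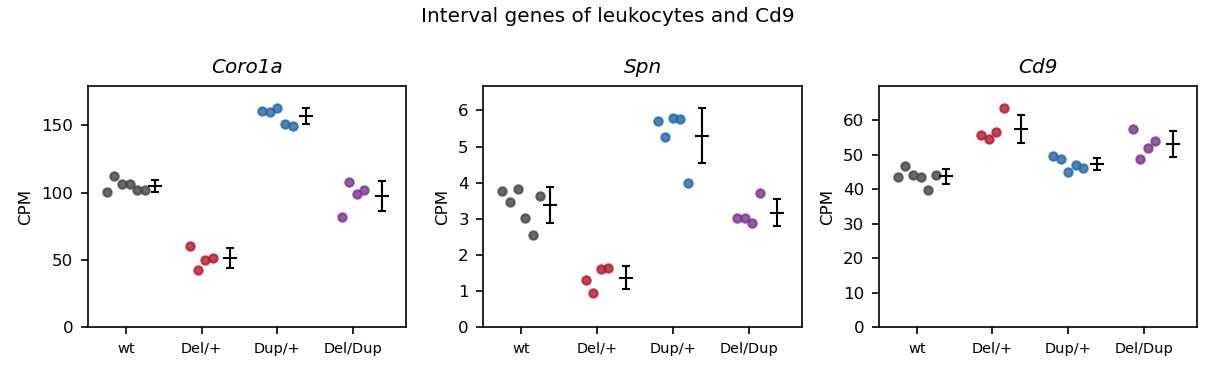
Level in CPM of the interval genes *Coro1a* and *Spn* and of *Cd9* in each library by group, from 0, with the group mean and SD beside the points. *Coro1a* and *Spn* step from Del/+ through wt and Del/Dup to Dup/+ without overlap between Del/+, wt and Dup/+, and the *Cd9* points of Del/+ and Del/Dup lie above all wt points.

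Blood and other brain cells were read from the same libraries. Of 14 neutrophil and lymphocyte genes 3 had enough reads to be tested and 0 were called, with *Cd4*, which rat macrophages also carry, at 0.32, 0.00 and 0.04. Red cell genes were higher in Dup/+, at a summed 180.0 to 243 CPM against 117 to 160.0 CPM in wt. The other carriers summed to 103 to 163 CPM (Del/+) and 132 to 164 CPM (Del/Dup). The beta-globin *Hbb* rose by 0.76 on the log2 scale (adjusted p = 0.0380, a call kept in 17 of 30 alternatives) and the 2 alpha-globin entries named *Hba-a2* by 0.56 and 0.66 (adjusted p = 0.0202 and 0.00365), while *Alas2*, the heme synthesis enzyme of red cells, was called only between Del/+ and Dup/+ (-0.65, adjusted p = 0.0349) along with both *Hba-a2* entries (-0.72 and -0.76). The alpha-globin entries are near-identical copies, so their split of reads is uncertain. Neuron (6 genes), astrocyte (6 genes) and endothelial and mural lists (4 tested) had 0 calls in every comparison. The neuron genes had median log2 fold changes of 0.01, -0.03 and -0.09 in Del/+, Dup/+ and Del/Dup, from -0.21 to 0.25 within Del/+, where the leading gene *Slc17a7* was the lowest (-0.21, then -0.13 and -0.24). The astrocyte medians were -0.12, -0.03 and -0.12, with the leading gene *Gfap* at -0.11, -0.12 and -0.19. The endothelial and mural medians were -0.06, -0.05 and -0.12, and the leading gene *Flt1* gave 0.03, -0.06 and -0.09, the highest of its list in Del/+.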

How the data were processed

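The authors made stranded total RNA libraries (the labels' protocol describes rRNA removal, another label field polyA RNA; this was not settled), sequenced single-end reads of 50 bases, aligned them with HISAT2 to rn6 with Ensembl release 96 models and counted them with HTSeq. What the authors deposited are unnormalized counts per gene for 19 libraries, 16191192 to 38760645 reads in genes, and 5 summary lines per file were kept out of library sizes and tests; multi-mapped reads were not counted, which can lower near-identical genes.

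Counts were scaled by TMM, filtered with filterByExpr and fitted with edgeR 4.0.16 (R 4.3.3) with a mean per group over all libraries; members were tested in the fit across all genes. CPM are TMM-scaled. The code was tested on simulated data. Alternatives were RLE size factors, library size alone, no filter, DESeq2 1.42.0, only the groups compared, a replicate block, wt replicate 5 as Dup/+, a term or covariate for the multi-mapped share, and each library left out; 2 more were added after seeing the data (the Ttr level as covariate, and libraries of low multi-mapped share only).

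Every microglia gene in the files is named; of the other lists, the genes called in any pairwise comparison and the gene of highest mean CPM are named, except that the interval check genes are given as a range and some results of the homeostatic list are not reported here. The members and lists were chosen with earlier results of these data known. Replicates of a group differed beyond sampling noise (chi-square per degree of freedom 3.60 to 61.4 over 37 pairs).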

Additional observations from a re-analysis of the deposited data

Results flagged for a closer look

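Of 140 combinations of a microglia gene and a genotype group, 6 held a library that stood apart from the rest of its group by Dixon's criterion at the 95% level, where chance would give about 7. In wt, *Aif1* was low in replicate 1 (8.59 CPM, next 11.2), *C1qc* was low in replicate 2 (13.1 CPM, next 16.6) and *Cyth4* was high in replicate 5 (8.57 CPM, next 7.5). In Del/+ replicate 2, the library with the lowest microglia levels, *Tlr7* (3.28 CPM, next 4.29) and *Tyrobp* (3.98 CPM, next 5.45) were low. *Olfml3* was low in Del/Dup replicate 5 (3.25 CPM, next 4.66).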

How the results depend on the processing

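Over 30 alternatives the count of called microglia genes was 0 or 1, the 1 being *Cd74*. It was 1 in Del/+ against wt without a filter on low counts, with DESeq2, with only the groups compared and with the replicate block; 1 in Del/Dup against wt with DESeq2; and 1 in the test of any difference without a filter, with DESeq2 and with the replicate block. Leaving out single libraries gave 0 to 1 in those comparisons: 1 in Del/+ without wt replicate 4, Del/+ replicate 1 or any of Del/Dup replicates 2, 3, 4 and 5, and 1 in Del/Dup and in the joint test without Del/Dup replicate 3 or 5. It was also 1 in Del/+ in libraries of low multi-mapped share only (added after seeing the data), where 1 Del/+ and 0 Del/Dup animals remain and the other groups supply the spread, so that this call is no evidence on Del/+. In Dup/+ against wt and Del/+ against Dup/+ it was 0 in every alternative. The median log2 fold change ranged over libraries left out from -0.11 to -0.01 in Del/+, -0.12 to -0.07 in Dup/+, -0.05 to 0.04 in Del/Dup and -0.05 to 0.04 in Del/+ against Dup/+; with a term for high multi-mapped share, set by Del/+ replicates 1 to 3 against 4, the Del/Dup median was 0.063, and with the *Ttr* level as covariate it was -0.072, with -0.119 in Del/+ (-0.021 and -0.072 as reported).

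Same-numbered replicates of different groups had a median r of 0.02 (24 pairs, -0.22 to 0.14). Pairs with other numbers had a median r of 0.00 (110 pairs, -0.29 to 0.32). A weak or partial pairing could give the same values, so whether the numbers mark a litter or batch is not settled. The replicate block left the Del/+ *Cd74* value at 1.22 (adjusted p = 0.0177). Depth limits the low genes: *Cd68* had 10 to 33 reads in a Del/+ library.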
